A study of Mus musculus with 6 samples.

Results

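This account describes 10 genes of adrenomedullin signalling and of the tissue factor pathway in the stria vascularis of wild-type and Esrrb mutant mice. Their members are Adm, Calcrl, Ramp1, Ramp2, Ramp3, F3, Tfpi, Tfpi2, Thbd and Procr. A member probe set is one whose platform annotation gives exactly 1 gene symbol, that symbol being one of the 10. The rule found 18 probe sets for the 10 genes, of 45037 probe sets and 18193 genes in all. The set was put together with results of these arrays known and was in part selected on the mutant minus wild-type differences, since Adm and F3 are among the genes that fell. Which of the other genes were taken for their values is not recorded. The differences of all 10 are therefore descriptions, and the calls given for them support nothing.

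The arrays hold total RNA from 6 pools, 3 per genotype, each labelled as stria vascularis. Mutant pools came from mice with a conditional knock-out of Esrrb, which the labels call Errb or Nr3b2 and which encodes estrogen-related receptor beta. Control pools came from mice labelled wild type. Each pool combined 10 mice. In the series' design text the pooled material is called inner ears, whereas the sample labels name the stria. Only wild-type replicate 1 carries an age, postnatal days 3 to 5. What drove the deletion, and the strain of the mice, are not stated in the labels. Values are log2 expression values made with RMA, and each difference is mutant minus wild type on that scale, given as the mean ± SD of 3 same-numbered pairs of arrays (n = 3). Nothing says that the pools were separate litters or dissections, so the spread is that between these samples.

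Adrenomedullin is a secreted peptide that widens vessels and tightens the endothelial barrier. It signals through Calcrl, a receptor of the G protein-coupled class that needs a RAMP partner at the cell surface: RAMP2 or RAMP3 make it an adrenomedullin receptor, RAMP1 a receptor for calcitonin gene-related peptide. Tissue factor, encoded by F3, is the membrane protein that binds factor VII to start coagulation, TFPI inhibits it, and thrombomodulin (Thbd) and the endothelial protein C receptor (Procr) turn thrombin towards the anticoagulant protein C route. Epithelial and perivascular cells are among those that make adrenomedullin and tissue factor, and endothelial cells are among those that carry these receptors. The stria is an epithelium with its own dense capillary bed, so epithelial and endothelial cells are both present in the dissected tissue.

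Adm and F3 were lower on every mutant array than on any wild-type array, Ramp2 read lower as well but by an amount that varied among pairs, and the other 7 genes had mean differences between -0.06 and 0.18 by their best expressed probe sets. In the paired limma fit, 3 of the 18 probe sets passed an adjusted p of 0.05, all lower in the mutant: both of Adm and the single one of F3. Over all 45037 probe sets 0.0933% passed, and 0.0822% passed as lower. Since the contrast also chose the members, the count is only set beside that background. At an unadjusted p under 0.05 the paired fit held 5 of the 18, those of Adm, F3 and Ramp2 and 1 of Tfpi, against 7.18% of all probe sets.

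The call depended on using the pairs and on all 3 of them. Without the replicate block 0 of the 18 passed limma's adjusted threshold, against 0.00666% of all probe sets, and 3 (both of Adm and that of F3) were under an unadjusted p of 0.05, against 0.209%. Without pairs 1, 2 and 3 in turn, 0 member probe sets passed each time, against 0.0155%, 0% and 0% of all. The members under an unadjusted p of 0.05 then numbered 4, 3 and 5, against 6.44%, 4.42% and 5.92% of all. The sizes moved little, with F3 at -1.54, -1.69 and -1.58 and the best expressed Adm probe set at -0.94, -0.89 and -0.85.

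The upstream sequences of Adm and F3 are shown because these are the members that fell, and because the mutated gene encodes a DNA-binding receptor. They are the 250 bases before the annotated start in RefSeq, build GRCm38.p6, both on the plus strand: Adm at chr7:110627407-110627656 and F3 at chr3:121723287-121723536. Capitals mark every match, on either strand, to one of 5 short motifs.
Adm: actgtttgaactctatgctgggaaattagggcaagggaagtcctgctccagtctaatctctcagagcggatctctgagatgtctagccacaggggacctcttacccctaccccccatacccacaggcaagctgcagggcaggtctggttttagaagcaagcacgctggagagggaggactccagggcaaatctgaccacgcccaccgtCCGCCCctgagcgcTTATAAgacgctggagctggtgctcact
F3: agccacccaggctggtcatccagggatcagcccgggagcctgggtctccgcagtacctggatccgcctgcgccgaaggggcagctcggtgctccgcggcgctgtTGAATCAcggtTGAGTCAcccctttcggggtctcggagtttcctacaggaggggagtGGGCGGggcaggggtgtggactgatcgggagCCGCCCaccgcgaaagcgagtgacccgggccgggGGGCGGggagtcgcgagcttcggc

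The letters searched were AAGGTCA for the half-site that estrogen-related receptors bind and ACGTG for the core of the hypoxia response element. The others were TGANTCA for AP-1, TATAA for the TATA box and GGGCGG for the GC box. The capitals at the end of the Adm sequence are a TATA match on both strands, its first base 28 bases before the start, and a GC box on the minus strand at 42. F3 held AP-1 matches at 146 and 135 bases before its start, and GC boxes at 89, 58 and 24. Over 32851 upstream windows of the same length, 4.08% held the receptor half-site, 16.6% the hypoxia core, 6.75% AP-1, 22.8% TATA and 32.7% the GC box. RefSeq windows were found for 8 of the 10 members, 11 windows in all, and not for Ramp2 and Thbd. Of the 11, 0 held the receptor half-site, 1 (of Tfpi2) the hypoxia core, 3 (of F3, Procr and Tfpi2) AP-1, 2 (of Adm and Tfpi) TATA and 7 the GC box. Such a match is a description of letters in a window, and their lack says nothing of binding elsewhere.

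Adm, the ligand, was measured by 2 probe sets. The better expressed read 7.45, 8.13 and 7.56 in the wild-type pools, in the order of their replicate numbers, and 6.65, 7.22 and 6.58 in the mutant pools. The lowest wild-type array lay 0.23 above the highest mutant array, so the genotypes did not overlap. The pair differences were -0.80, -0.91 and -0.98, a mean of -0.89 ± 0.09, which is 1.86-fold (95% interval 1.64 to 2.11 in the paired fit). This probe set has a name ending that marks possible cross-hybridisation. The other Adm probe set, without that ending, read 6.63, 7.65 and 6.71 in wild type and 5.65, 6.39 and 5.35 in the mutant. It differed by -1.20 ± 0.20, 2.30-fold (1.94 to 2.72), again with no overlap. Among the 18193 genes, each taken by its best expressed probe set, Adm had rank 53 from the lowest difference.

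F3, the initiator of coagulation, had the largest difference of the 10 genes. Its only probe set read 8.04, 8.75 and 8.59 in wild type and 6.31, 7.32 and 6.94 in the mutant. The genotypes were 0.72 apart at their nearest arrays. The pair differences of -1.73, -1.43 and -1.65 gave -1.60 ± 0.16, or 3.04-fold (95% interval 2.61 to 3.53), and rank 15 of 18193. The F3 difference exceeded that of Adm in every pair, by 0.71 ± 0.21 on average when both are taken by their best expressed probe sets. On the wild-type arrays F3 lay between the 79.6 and 83.1 percentile of all probe sets and on the mutant arrays between 54.5 and 59.0.

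**Figure D1:**
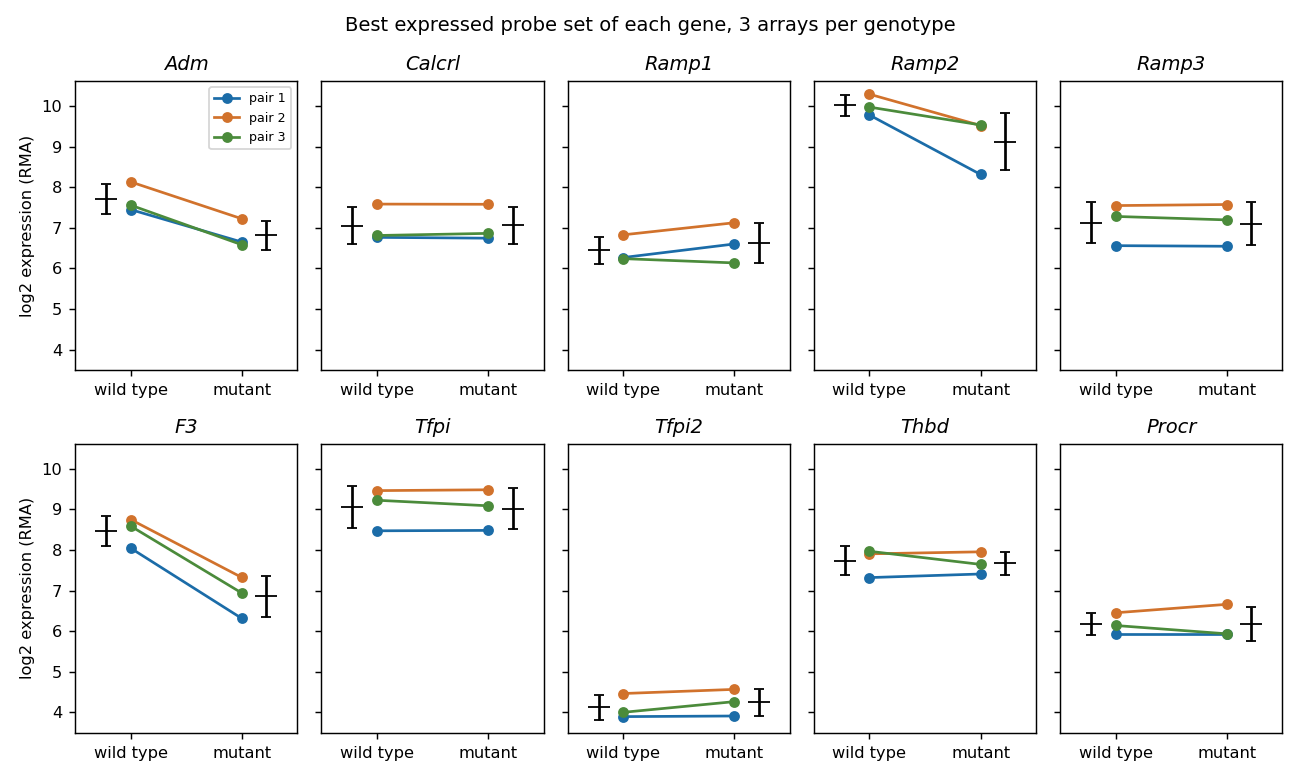
Log2 expression (vertical axis) of the best expressed probe set of each of the 10 genes on wild-type and mutant arrays; lines join same-numbered pairs and black bars give the mean ± SD of 3 arrays. The mutant arrays of Adm, F3 and Ramp2 lie below all wild-type arrays, whereas those of the other 7 genes overlap with them. Heights of different genes are not comparable because each probe set has its own scale.

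Calcrl, the receptor that every RAMP joins, read much alike in both genotypes by its best expressed probe set. The values were 6.77, 7.58 and 6.81 in wild type and 6.75, 7.58 and 6.86 in the mutant. The difference was 0.01 ± 0.04, with a 95% interval of -0.16 to 0.18. The other Calcrl probe sets differed by -0.12 ± 0.30 and -0.10 ± 0.06. The first of these was lower in pair 3 alone (-0.47) and higher in pairs 1 and 2, and the second was lower in all 3 pairs by 0.14 at most.

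Ramp2, the partner that makes Calcrl an adrenomedullin receptor, was the exception among the receptor genes. It read 9.78, 10.29 and 9.97 in wild type and 8.31, 9.52 and 9.53 in the mutant, and the genotypes did not overlap, with a gap of 0.25. The pair differences were uneven at -1.46, -0.77 and -0.44, a mean of -0.89 ± 0.52 with an interval of -1.39 to -0.39. The mean was -0.89 as for Adm, yet the SD over pairs was several times wider and Ramp2 did not pass the adjusted threshold. Pair 1, where the gap was widest, gave more than the other pairs together, and without it the mean was -0.61. A further 2 probe sets list Ramp2 together with a second gene and are not used here.

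Signs of RNA quality and of tissue content were uneven as well. For Gapdh, the control probe set at the 3' end read 2.28 (log2) above the one at the 5' end in the wild-type pool of pair 1 and 2.57 in its mutant pool. In pairs 2 and 3 this gap was 0.21 and -0.04 in wild type and 0.16 and 0.51 in the mutant, so the level was highest in pair 1 while the genotypes lay furthest apart in pair 3. The same gap for Actb read 1.01, 0.52 and 0.18 in the wild-type pools and 1.35, 0.47 and 0.49 in the mutant. Neuron markers were likewise uneven, with list medians of 1.96, 0.23 and 0.16 in pairs 1 to 3 and mean levels of the 8 genes from 5.33 to 5.89 on wild-type and from 5.51 to 7.53 on mutant arrays. The part of either in the Ramp2 difference was not tested.

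Ramp3, the second partner that yields an adrenomedullin receptor, read 6.56, 7.55 and 7.28 in wild type and 6.55, 7.57 and 7.20 in the mutant. Its difference was -0.02 ± 0.06, with an interval of -0.20 to 0.15. Ramp1, which directs the receptor to calcitonin gene-related peptide, read 6.27, 6.83 and 6.24 against 6.60, 7.13 and 6.14, a difference of 0.18 ± 0.24. It was higher in pairs 1 and 2 and lower in pair 3, and its other probe sets differed by -0.06 ± 0.05 and -0.07 ± 0.06. Of the 3 RAMP genes, then, Ramp2 alone was lower on all mutant arrays.

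The inhibitor genes Tfpi and Tfpi2 had small differences by their best expressed probe sets. Tfpi, which blocks the tissue factor and factor VII complex, read 8.47, 9.46 and 9.22 in wild type and 8.48, 9.48 and 9.09 in the mutant by its best expressed probe set. That is a difference of -0.04 ± 0.09 (interval -0.22 to 0.15). Its other 3 probe sets disagreed: one was higher in all 3 pairs (0.10 ± 0.02), one was near 0 (0.002 ± 0.21), and one was lower in all 3 (-0.40 ± 0.39, with -0.84 in pair 3). Tfpi is spliced into forms with different ends, and which form each probe set reads was not determined. Tfpi2, a related inhibitor of plasmin and other proteases, read between 3.90 and 4.46 in wild type and between 3.91 and 4.57 in the mutant, with pair differences of 0.02, 0.10 and 0.26, a mean of 0.13 ± 0.13. Its values lay between the 8.32 and 14.8 percentile of all probe sets on every array. Signal over background is not given, so whether Tfpi2 was detected at all cannot be told.

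Thbd and Procr, the endothelial receptors of the protein C route, also differed little. Thbd read 7.32, 7.90 and 7.97 in wild type and 7.41, 7.95 and 7.64 in the mutant, a difference of -0.06 ± 0.23 (interval -0.32 to 0.20). Procr read 5.93, 6.45 and 6.14 against 5.93, 6.66 and 5.93, a difference of 0.001 ± 0.21 (interval -0.25 to 0.25). In pair 1 the Procr values were exactly equal, as were those of the 2 lesser Ramp1 probe sets. Such exact zeros made up 34.2% of all probe sets in pair 1, so a zero there says little about a gene.

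Across the 18 probe sets, 4 had all mutant arrays below all wild-type arrays (both of Adm, and those of F3 and Ramp2), against 0.306% of all probe sets, and 0 had the reverse. In all 3 pairs 6 were lower, against 8.41% of all. Those were the same 4 with 1 of Calcrl and 1 of Tfpi. Neither the no-overlap count nor the count over pairs can include a probe set that was equal in pair 1. Such were 34.2% of all probe sets and 3 of the 18, which lowers the shares over all. The 14 probe sets of the 7 genes other than Adm, F3 and Ramp2 had mean differences between -0.40 and 0.18.

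**Figure D2:**
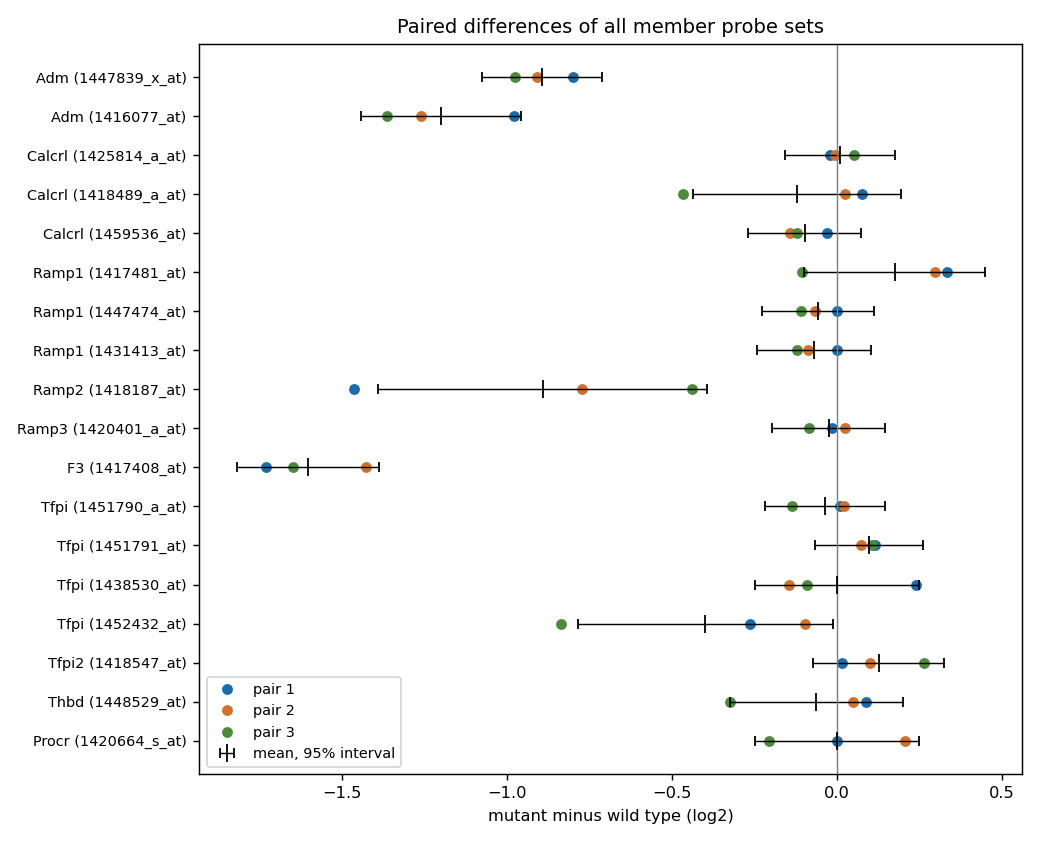
Mutant minus wild-type difference (log2, horizontal axis) of all 18 member probe sets, with a coloured point per pair, the mean as a tick and the 95% interval of the paired fit as a bar. The probe sets of Adm and F3 lie between -0.80 and -1.73 in each pair, Ramp2 spreads from -1.46 to -0.44, and most others straddle 0.

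The contrast named in the rule set the ligand and the initiator, Adm and F3, against 6 receptor genes (Calcrl, Ramp1, Ramp2, Ramp3, Thbd and Procr). The median difference of the first was -1.27, -1.17 and -1.31 in pairs 1 to 3. The median of the receptors was -0.01, 0.04 and -0.15. The gap between them was thus -1.26, -1.21 and -1.16, a mean of -1.21 ± 0.05. Adm fell further than its receptor Calcrl by 0.78, 0.90 and 1.03, a mean gap of -0.90 ± 0.12. Against Ramp2 the order changed, with Adm 0.66 less lowered in pair 1 and 0.14 and 0.54 more lowered in pairs 2 and 3. F3 minus Thbd was -1.54 ± 0.25 and F3 minus Tfpi -1.57 ± 0.15. No p is given for these gaps, since the members were chosen with their direction known. The rule calls the ligands epithelial and the receptors vascular, and F3, an initiator, is set with Adm here. That split was not tested, and whole-tissue RNA does not show which cells held any of these transcripts. In such RNA, fewer cells of a type and less RNA per cell cannot be told apart.

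Endothelial markers were the closest comparison for the vascular side. All 15 measured markers of capillary endothelium had mean differences below 0, from -0.42 for Cldn5, a tight junction gene, to -0.02 for Cdh5, the endothelial cadherin gene. Of all 18193 genes 48.6% had a mean difference below 0. The list median was -0.26, -0.18 and 0.03 in the 3 pairs, a mean of -0.14 ± 0.15, and the median over all 18193 genes was 0.0036. None of the 15 passed limma's adjusted threshold, against 0.0933% of all probe sets. Counted by best expressed probe set, as the lists are, 24 of the 18193 genes passed as lower and 3 as higher. By limma 4 of the 15 were under an unadjusted p of 0.05, all lower, against 7.18% of all probe sets. Emcn, the endomucin gene, differed by -0.11 ± 0.23 and Eng, the endoglin gene, by -0.10 ± 0.24. The mean level of the list ranged from 7.65 to 8.72 on the wild-type arrays and from 7.34 to 8.59 on the mutant arrays.

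The Ramp2 difference was below that of every one of the 15 in each pair, and lay -1.21, -0.59 and -0.47 from the list median, a mean of -0.75 ± 0.40. Thbd, at -0.06, lay within the range of the 15 means, and Calcrl and Procr, at 0.01 and 0.001, lay just above its upper end of -0.02, by less than their SDs over pairs. Lymphatic endothelial markers had a median of 0.12 ± 0.10 over 5 genes (Pdpn 0.13 ± 0.12 and Nrp2 0.13 ± 0.09) and pericyte and smooth muscle markers -0.03 ± 0.01 over 10 (Rgs5 -0.10 ± 0.15 and Pdgfrb 0.18 ± 0.12). None passed by limma's adjusted or unadjusted p at 0.05, against 0.0933% and 7.18% of all probe sets.

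**Figure D3:**
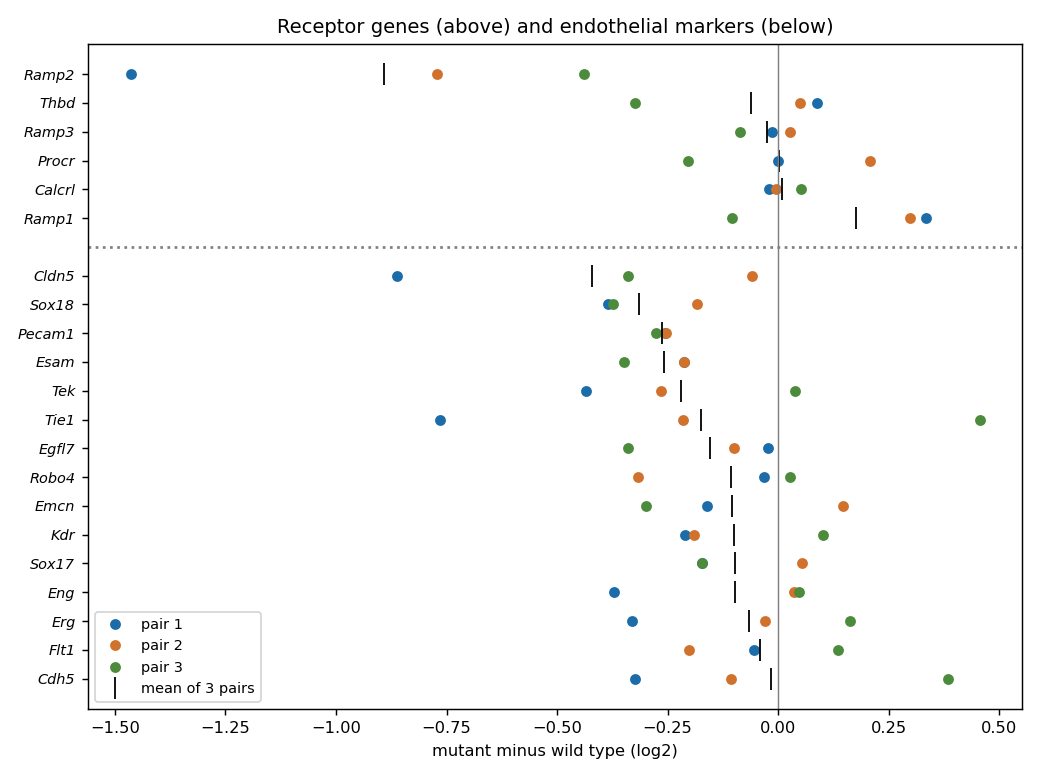
Mutant minus wild-type difference (log2, horizontal axis) per pair for the 6 receptor genes above the dotted line and 15 capillary endothelial markers below it, with the mean of 3 pairs as a tick. Ramp2 is left of all markers in each pair, while the other 5 receptor genes scatter about 0.

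Among markers of the strial cell types the shift was larger. All 7 measured marginal cell markers had mean differences below 0, 6 were lower in all 3 pairs and under an unadjusted p of 0.05, and 4 passed limma's adjusted threshold. Over all probe sets 7.18% were under that unadjusted p in limma and 0.0933% passed. Like the others, this list was chosen with earlier results of these data known, so its counts are descriptions. The list median was -1.44 ± 0.23 (-1.62, -1.51 and -1.19). Those that passed were Kcne1 (-4.32 ± 0.30) and Kcnq1 (-1.67 ± 0.17), the subunits of the apical potassium channel, Atp13a5 (-1.86 ± 0.26), a P-type ATPase gene, and Slc12a2 (-1.22 ± 0.18), the sodium-potassium-chloride cotransporter gene. Intermediate cell and melanocyte markers had a median of -0.57 ± 0.13 with 0 of 10 passing and 7 under an unadjusted p of 0.05, all lower. The melanin enzyme gene Dct differed by -0.68 ± 0.08 and Sox10 by 0.09 ± 0.27. Of 5 genes listed as basal cell markers 4 were lower in all 3 pairs and under an unadjusted p of 0.05. Of these 1 passed the adjusted threshold, the connexin gene Gjb6 (-1.27 ± 0.14). The list median was -0.38 ± 0.15, with means from -1.27 to 0.04. Whether the listed genes are particular to basal cells was not tested. The F3 difference thus lay near the marginal cell median and the Adm difference between the marginal and intermediate cell medians. Whether either gene is made by those cells here was not tested.

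By the rule for likeness, the genes nearest to a member were those whose profile over the 6 arrays, centred on its own mean, had the smallest root mean square distance from it. For F3 these were Hs3st6, a heparan sulfate sulfotransferase gene (0.160), Nipal1, a magnesium transporter gene (0.178), Atp1b2, a sodium pump subunit gene (0.192), Etnppl, an enzyme gene of phosphoethanolamine breakdown (0.199), and Ptgds, the prostaglandin D synthase gene (0.201). Their own differences ran from -1.32 ± 0.23 for Hs3st6 to -1.72 ± 0.07 for Nipal1. The median distance of all other genes from F3 was 0.847.

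For Adm the nearest were Mlana, a melanosome gene (0.111), Cmbl (0.113), the desmosomal cadherin gene Dsg2 (0.120), Fhdc1 (0.130) and Sytl2, a vesicle trafficking gene (0.131), against a median distance of 0.517. Their differences ran from -0.91 ± 0.28 for Mlana to -0.71 ± 0.07 for Sytl2. The lists for Adm and F3 had no gene in common, and F3 was rank 1646 in likeness to Adm while Adm was rank 35 in likeness to F3. The distance between Adm and F3 is the same in both directions (0.431), so the ranks differ only in how many genes lie closer. All 6 arrays share the pair effects, which every one of these profiles carries. The profiles also hold the genotype difference on which Adm and F3 were chosen, so their nearest genes share that difference by construction.

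**Figure D4:**
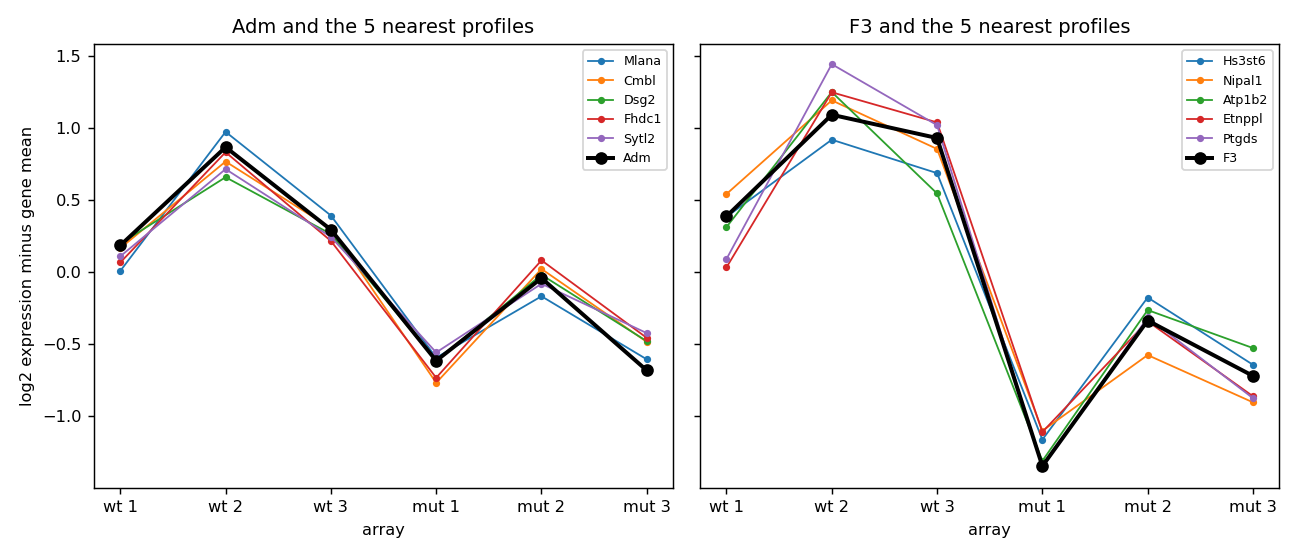
Log2 expression minus the gene's mean (vertical axis) on the 6 arrays for Adm and F3 (black) and the 5 genes with the nearest profile to each (colours). Within each genotype the second replicate is highest in every profile, and all mutant arrays of F3 and its neighbours lie below their wild-type arrays.

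None of the other genes of these pathways passed the adjusted threshold, and their list medians lay near 0 with members on both sides. Some listed genes read as low as Tfpi2 or lower. Whether those were detected cannot be told, so a difference near 0 does not show that they were unchanged. Of 9 further genes of the calcitonin family and of adrenomedullin handling, 0 passed limma's adjusted threshold. By limma 2 were under an unadjusted p of 0.05, 1 in each direction, against 7.18% of all probe sets. The list median was -0.08 ± 0.08. Ackr3, the decoy receptor that takes up adrenomedullin and chemokines, read lower in all 3 pairs (-0.36 ± 0.16), and Mme, the neprilysin gene whose product degrades peptides, higher in all 3 (0.28 ± 0.04). In the Gs and cyclic AMP route below the receptor 0 of 15 passed, 3 were under an unadjusted p of 0.05 (1 lower, 2 higher), and the median was 0.05 ± 0.14. Gnas, the Gs subunit gene, differed by -0.15 ± 0.35 and Prkar1a, a protein kinase A subunit gene, by -0.09 ± 0.07.

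Downstream of tissue factor, 0 of 18 coagulation factor and thrombin receptor genes passed, with a median of -0.03 ± 0.05. By limma 3 were under an unadjusted p of 0.05 (1 lower, 2 higher), against 7.18% of all probe sets. The mean level of these 18 genes on the wild-type arrays was 5.35, 6.06 and 5.56, below the array medians of 6.07, 6.95 and 6.42. F2r, the main thrombin receptor gene, differed by 0.27 ± 0.15 and Tgm2, a transglutaminase gene, by 0.13 ± 0.07. Among 18 genes of the protein C system, serpins and fibrinolysis, 0 passed, 3 were under an unadjusted p of 0.05 (1 lower, 2 higher), and the median was -0.04 ± 0.04. Anxa5, which shields the phospholipid on which clotting factors assemble, differed by 0.50 ± 0.10, and Anxa2, a surface receptor for plasminogen and its activator, by 0.02 ± 0.06. The means of this list ran from -0.60 for Gas6, a vitamin K-dependent ligand of receptor kinases, to the 0.50 of Anxa5. Gas6 read lower in all 3 pairs, most in pair 1 and by 0.25 in pair 3.

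Adm is a textbook hypoxia target and F3 an early response gene, so the values of both lists are given. Whether either response had a part in the Adm and F3 differences was not tested. Hypoxia response genes had a median of 0.01 ± 0.04, with means from -0.34 to 0.27 and 0 of 15 passing. By limma 2 were under an unadjusted p of 0.05 (1 lower, 1 higher), against 7.18% of all probe sets. Hif1a (0.03 ± 0.05) and Epas1 (-0.11 ± 0.14), the oxygen-regulated factors, were near 0. Immediate early genes had a median of -0.02 ± 0.06, with means from -0.64 to 0.50 and 0 of 15 passing. By limma 4 were under an unadjusted p of 0.05 (3 lower, 1 higher), against the same 7.18%. Klf4 (-0.48 ± 0.34) and Egr1 (0.50 ± 0.26), both early response transcription factors, differed in opposite directions. With each gene taken as the mean of its probe sets the signs turned, the hypoxia median to -0.034 and the immediate early median to 0.052.

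Markers of other cells were uneven. Macrophages had a marker median of 0.15 ± 0.20 (Csf1r 0.14 ± 0.15, Mrc1 0.29 ± 0.36) and pair medians of -0.06, 0.34 and 0.18. Spiral ligament fibrocyte markers had a median of -0.03 ± 0.11 (Car3 0.04 ± 0.01, Tbx18 0.19 ± 0.57), neuron markers 0.79 ± 1.02 (Stmn2 0.98 ± 1.45, Rbfox3 0.46 ± 0.72) and cartilage and bone markers 0.11 ± 0.09 (Col2a1 0.04 ± 0.31, Alpl 0.17 ± 0.10). By limma 0 genes of these 4 lists passed the adjusted threshold. Under limma's unadjusted p of 0.05 were 1 of 10, 1 of 7, 2 of 8 and 1 of 7, against 7.18% of all probe sets. Esrrb itself, by its best expressed probe set, differed by -0.07 ± 0.21 and by the others by -0.18 ± 0.43 and -0.42 ± 0.46, none of them passing. The deleted segment of Esrrb is not stated in the labels, so these values do not check the genotype.

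**Figure D5:**
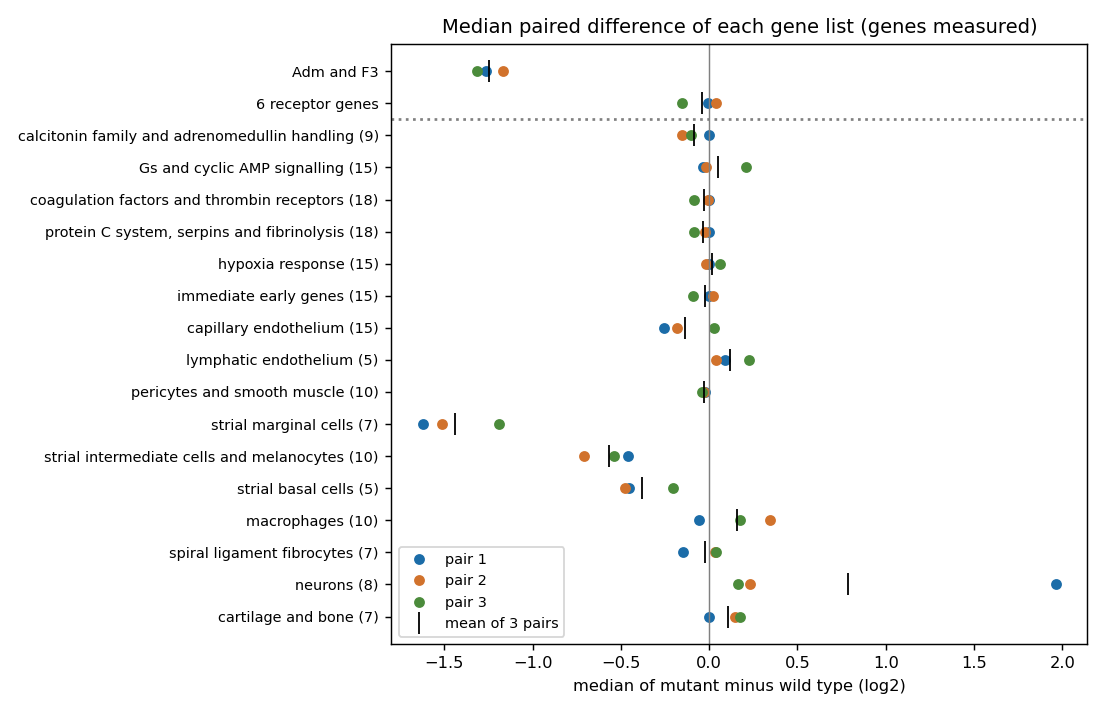
Median mutant minus wild-type difference (log2, horizontal axis) of Adm and F3, of the 6 receptor genes, and of each of 16 gene lists with the number of genes measured; points are the 3 pairs and ticks their mean. The median of Adm (mean -0.89) and F3 (-1.60) sits near that of the marginal cell markers, though Adm alone lies between the marginal and intermediate cell medians. The median of the receptor genes, Ramp2 (-0.89) among them, lies near the other pathway lists around 0.

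Wild-type pools alone, which the choice of members did not compare, give the spread of the 10 genes over 3 arrays without the mutation. These arrays also differed in the Gapdh gap between 3' and 5' ends (2.28, 0.21 and -0.04), and RMA may have been run per pair. The spread does not separate RNA quality or processing from differences between pools. The SD over the 3 wild-type arrays ran from 0.16 to 0.65 among the 18 probe sets. Array medians were 6.07, 6.95 and 6.42 in wild-type replicates 1 to 3, and after each array's median was subtracted the SDs ran from 0.12 to 0.39. For F3 the centred wild-type values were 1.97, 1.80 and 2.16 and the mutant ones 0.23, 0.39 and 0.55. For the best expressed Adm probe set they were 1.38, 1.18 and 1.13 against 0.57, 0.29 and 0.20. For Ramp2 they were 3.71, 3.34 and 3.55 against 2.23, 2.58 and 3.15, the mutant arrays ranging more widely than the wild-type ones.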

How the data were processed

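RNA of 6 pools was measured on 1 Affymetrix-type array each. The values the authors deposited are log2 probe set levels. RMA is the method that the submitters' processing notes name, with no version or settings. That they are log2 was taken from their range. Of 45101 probe sets 64 controls were left out, and no level filter was applied. The annotation gave 1 symbol for 34945 probe sets, several for 932 and none for 9160. A gene was its probe set with the highest mean.

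Differences were tested two-sided by limma 3.58.1 under R 4.3.3 (functions lmFit and eBayes) with the replicate number as a block, Benjamini-Hochberg adjusted over all 45037 probe sets at 0.05. The number of arrays limits the precision. Intervals and calls use a variance that limma draws in part from all probe sets, 34.2% of which were exactly equal in pair 1. What these equal values do to the width of the intervals was not tested. The replicate numbers come from the labels. Deviations from genotype means correlated at 0.879, 0.818 and 0.746 within pairs. Exactly equal values occurred in same-numbered pairs only, so RMA may have been run per pair, which would raise these correlations too. The fit was tested on simulated data with independent normal noise. Those data lack the exactly equal values of the real pairs, so that test does not cover their effect.

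The members and lists were chosen with earlier results of these data known. The 14 list entries without a match in the annotation were left out. Lists are counted by gene, whereas the percentages beside them are over all probe sets. Named were all members, for each list at most 4 passing genes or, with none, its 2 best expressed, the 5 nearest profiles to Adm and F3, and Esrrb; Cldn5, Cdh5 and Gas6 were named after their values were seen. Alternatives were no block, a level filter, quantile normalization, median centring, trend and robust priors, leaving out pairs, other thresholds, other probe sets and other receptor groups. Leaving out 1 array takes its pair out of the fit.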

Additional observations from a re-analysis of the deposited data

How the results depend on the processing

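The count of 3 member probe sets that passed the paired limma fit was 3 with quantile normalization, median centring, a trended robust prior or an adjusted p of 0.1, and 2 with the level filter, which left 1 Adm probe set out of the test. It was 0 without the replicate block, 0 at an adjusted p of 0.01, and 0 to 0 when 1 pair was left out, where 1 residual degree of freedom remains. The gap of -1.21 between Adm with F3 and the receptor genes was -1.28 with the mean of each gene's probe sets and -1.12 with means in place of medians. It was -1.32 without probe sets whose names end in _a_at, _s_at or _x_at, which also leaves out Ramp3 and Procr. In the other 6 settings it moved by less than its SD, but leaving out a pair cannot move it further and median centring cannot change it. Of 78 recomputed differences of single members, 73 moved by less than 1 SD over pairs; the exceptions, none of which turned a passing difference, were Adm at -1.05 and -1.20, Calcrl at -0.07 and -0.10 and Tfpi at 0.10, all from another choice of probe sets. Of 96 recomputed list medians 91 moved by less than 1 SD. Many of these settings could not have moved a value that far. Leaving out 1 of 3 pairs cannot shift a mean by 1 SD, and dropping the block leaves it unchanged. A gene with a single probe set keeps its value when probe sets are averaged. The counts are therefore no measure of robustness. Averaging probe sets put hypoxia response genes at -0.034, immediate early genes at 0.052 and pericytes at -0.081, and pericytes were at -0.044 with quantile normalization and -0.018 with median centring. The hypoxia and early gene medians changed sign there.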
